A study of Sus scrofa with 3 samples.

Results

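The SLC25 family, the carrier proteins of the inner mitochondrial membrane, was followed in the kidneys of Wuzhishan pigs, a small breed from China. Members were the rows of the count table whose gene name is SLC25A followed by a number, which gave 40 of 34570 genes. Of these, 36 had a mean of at least 1 scaled CPM over the libraries (CPM is the count divided by library size in units of 1e+06, after TMM scaling) and were compared, among 15472 genes that passed the same filter. Pigs aged 6 to 7 months on a high-fat, high-cholesterol diet formed 3 groups: castrated males with testosterone replacement (CMT), castrated males (CM) and intact males (IM). RNA of 3 pigs was pooled in equal amounts to make the library of a group, so the data hold 3 libraries, 1 a group. Pooling hides how pigs of a group varied, so no p-value is given and no difference has a replicate check. All groups shared the diet, and no group on a standard diet was analysed here. The labels state neither the dose of testosterone nor the time since castration.

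Mitochondria oxidise fuels behind a membrane that most charged metabolites cannot cross, and each SLC25 carrier lets a particular set of them through, usually in exchange for another. The ADP/ATP carriers export the ATP that respiration makes, the phosphate carrier supplies phosphate for it, and other members move citrate, aspartate, ornithine, acylcarnitines, cofactors or iron. The proximal tubule of the kidney is rich in mitochondria, burns fatty acids and makes glucose, so that its metabolism depends on these exchanges. The names below follow the best known substrate, which for many members was established in human or rodent proteins.

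The libraries held 13601475 counts in CMT, 18503537 in CM and 16459771 in IM. Mitochondrially encoded genes took 8.43% of the counts in CMT, 8.83% in CM and 8.45% in IM. The 19 proximal tubule markers in the table summed to 24335 scaled CPM in CMT, 24901 in CM and 23635 in IM, and none of them was at 0. Summed over the 40 rows, the carriers gave 4139 scaled CPM in CMT, 3803 in CM and 4002 in IM. The sum had a fold of 1.09 (1.08 to 1.10) in CMT over CM, of 0.95 (0.94 to 0.96) in CM over IM and of 1.03 (1.02 to 1.05) in CMT over IM. Without SLC25A6, the row with the most counts, these folds were 1.18 (1.16 to 1.19), 0.876 (0.866 to 0.887) and 1.03 (1.02 to 1.05). Here and below, the bracket is the exact 95% interval of the fold, and it covers counting error only. A fold above 1 means more in the library named first. In whole tissue, fewer cells of a type and less RNA per cell cannot be told apart.

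The word called is kept for genes whose whole interval lay beyond 2-fold. For CM against IM, which asks how castrated pigs differed from intact ones, 0 of 36 carriers were called higher and 0 lower, where 1.2% and 1.52% of all compared genes were called in those directions. In CMT against CM, which asks how testosterone replacement differed from castration alone, SLC25A25, SLC25A34 and SLC25A29 were called higher, that is 3 of 36 or 8.33%, against 1.84% of all genes. None was called lower, against 1.11% of all genes. For CMT against IM, 0 were called in either direction, against 0.905% higher and 0.595% lower among all genes.

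**Figure D1:**
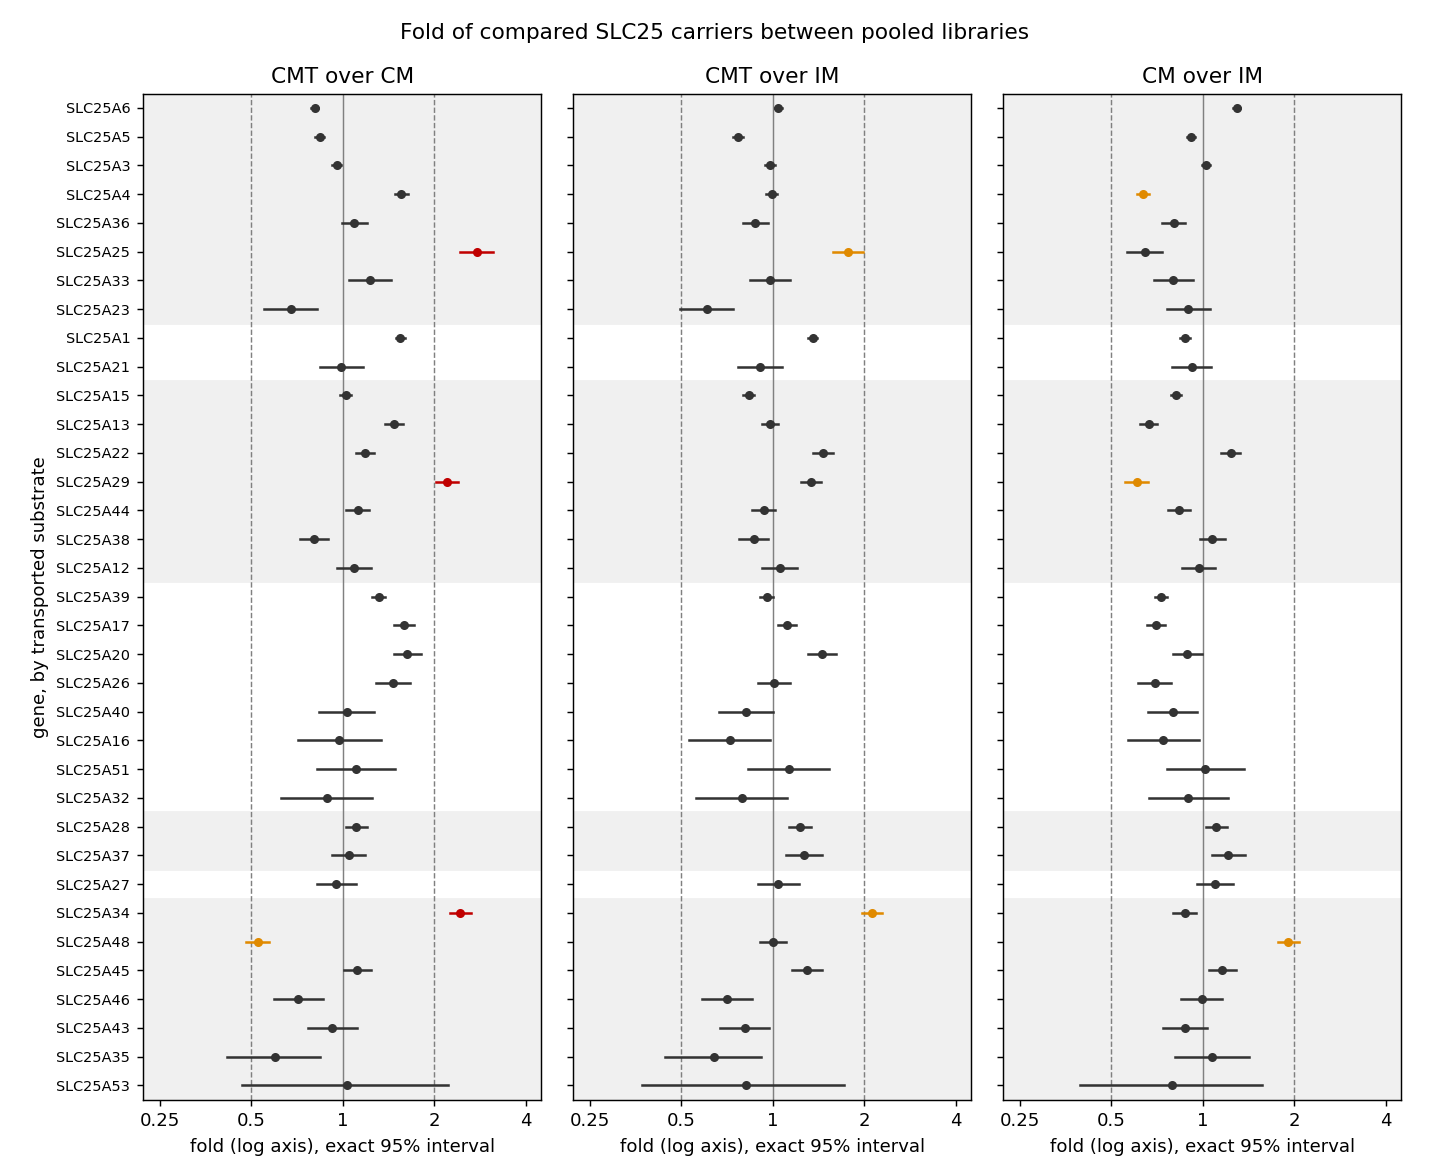
Fold (log axis) of 35 of the 36 compared SLC25 genes in CMT over CM, CMT over IM and CM over IM, with the exact 95% interval as a bar; dashed lines mark 2-fold in each direction, grey bands separate substrate groups, red marks calls beyond 2-fold and orange intervals beyond 1.5-fold. SLC25A25, SLC25A34 and SLC25A29 are the red points in CMT over CM, and SLC25A48 stands at 0.524 there and at 1.91 in CM over IM.

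Intervals that merely excluded a fold of 1 were common, and their share grows with the counts of a gene. Above 1 in CMT against CM were 15 of 36 carriers and below 1 were 8, against 21.3% and 20.4% of all genes. For CM against IM the numbers were 6 above and 18 below, against 21.2% and 23.2%, and for CMT against IM 11 and 10, against 17.8% and 17.5%. At 1.5-fold, few carriers joined the called ones. In CM against IM that bar was passed upward by SLC25A48 (1 of 36, against 2.81% of all genes) and downward by SLC25A29 and SLC25A4 (2 of 36, against 3.42%). In CMT against CM it was passed upward by the 3 called genes (against 3.68%) and downward by SLC25A48 (against 2.61%). SLC25A25 and SLC25A34 passed it upward in CMT against IM (2 of 36, against 2.3%), and 0 passed it downward (against 1.44%). The median log2 fold of the 36 carriers was 0.09 in CMT against CM, -0.18 in CM against IM and -0.03 in CMT against IM, while that of all compared genes lay between -0.01 and 0.00 in each. Above 0 on the log2 scale were 22 of 36 carriers in CMT against CM and 11 of 36 (30.6%) in CM against IM, beside 7624 and 7626 of the 15472 genes. Each comparison shares a library with the others, so their directions are not independent.

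**Figure D2:**
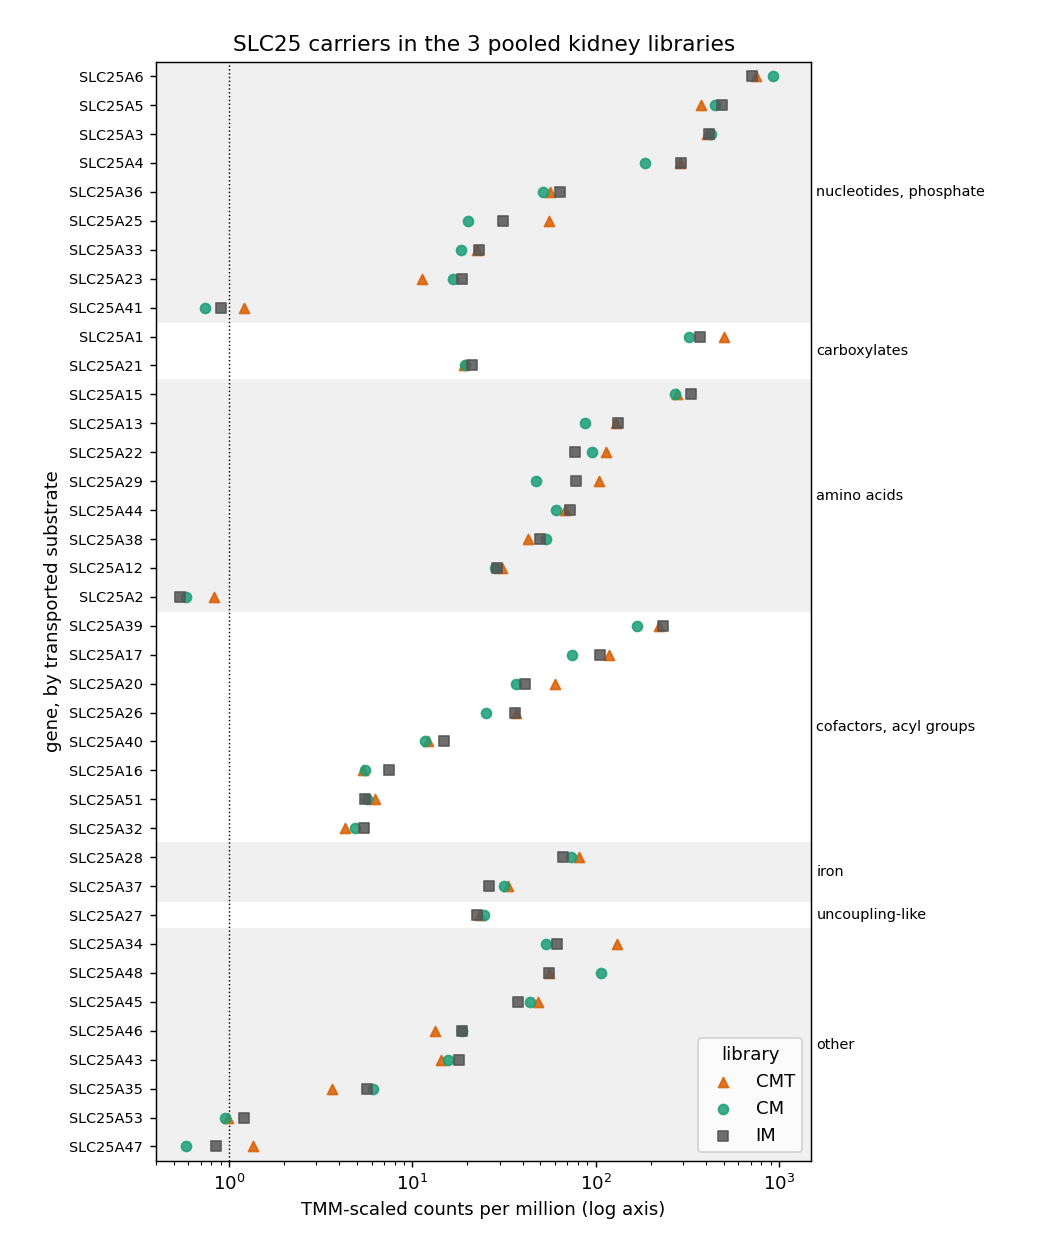
Level of 38 of the 39 SLC25 genes with a count, as TMM-scaled CPM on a log axis, in CMT (triangles), CM (circles) and IM (squares); genes are grouped by substrate and ordered by mean count, which is not corrected for gene length, and the dotted line marks the filter at 1. For SLC25A34 the CMT point stands at 132, right of CM at 53.9 and IM at 62.0, and for SLC25A48 the CM point stands at 107, right of CMT at 55.9 and IM at 55.8.

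Among carriers of nucleotides and phosphate, the ADP/ATP carriers did not share an order of libraries. SLC25A4, the isoform that dominates in heart and skeletal muscle, had 289 scaled CPM in CMT, 185 in CM and 292 in IM. CMT and IM lay close together and CM lay below them, with a fold of 1.56 (1.49 to 1.63) in CMT over CM and 0.635 (0.608 to 0.664) in CM over IM. SLC25A6 had 747 scaled CPM in CMT, 925 in CM and 717 in IM. For it CM was the highest library, with a fold of 0.807 (0.788 to 0.828) in CMT over CM and 1.29 (1.26 to 1.32) in CM over IM. SLC25A5 had 375 scaled CPM in CMT, 447 in CM and 489 in IM, with CMT lowest at a fold of 0.767 (0.741 to 0.795) over IM. None of the 3 reached 2-fold.

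These genes code for isoforms with the same function, and their division of counts was also compared. SLC25A4 took 20.5% of the counts of the 3 genes in CMT (95% exact interval 19.9 to 21.1), 11.9% in CM (11.5 to 12.3) and 19.5% in IM (19.0 to 20.0). The share of SLC25A6 was 52.9% in CMT (52.2 to 53.7), 59.4% in CM (58.9 to 60.0) and 47.9% in IM (47.3 to 48.5). SLC25A5 held 26.6% in CMT, 28.7% in CM and 32.7% in IM. The summed level of the 3 was 1411 scaled CPM in CMT, 1557 in CM and 1498 in IM. Its fold was 0.906 (0.890 to 0.923) in CMT over CM and 1.04 (1.02 to 1.06) in CM over IM. In CMT over IM it was 0.942 (0.924 to 0.960). The 3 genes are similar in sequence and have processed copies in mammalian genomes, and how the authors' counting assigned shared reads is not known, which makes the split between them uncertain. SLC25A31, the ADP/ATP carrier of male germ cells, had 0 counts in every library, which allows up to 0.227 scaled CPM in CMT, 0.159 in CM and 0.181 in IM (3 counts).

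**Figure D3:**
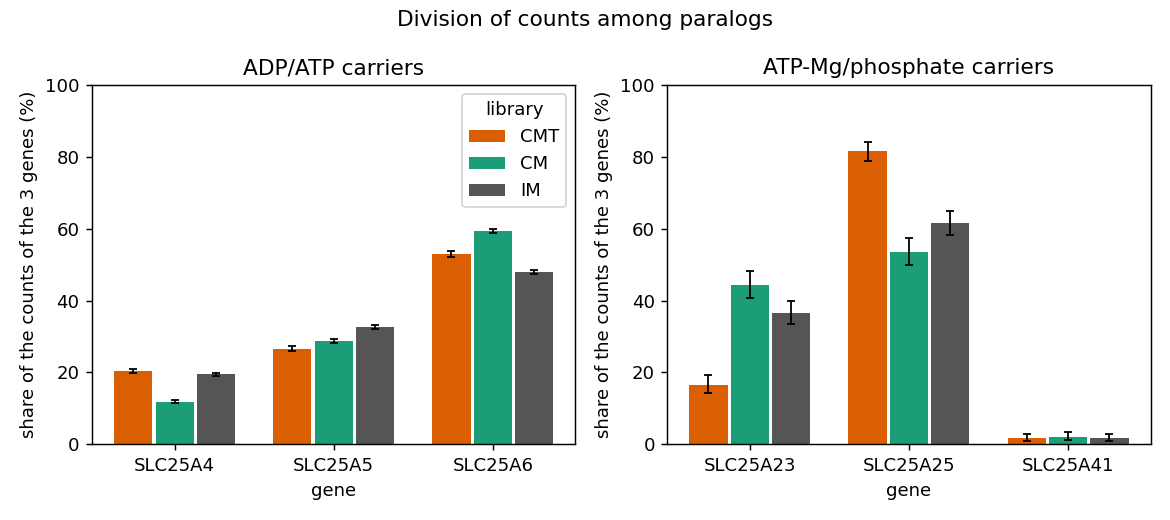
Share (%) of the summed counts of each paralog set in CMT, CM and IM (bars, left to right), with exact 95% binomial intervals, for the ADP/ATP carriers and for the ATP-Mg/phosphate carriers. SLC25A4 takes 20.5% in CMT, 11.9% in CM and 19.5% in IM, and SLC25A25 takes 81.6% in CMT, 53.6% in CM and 61.6% in IM.

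SLC25A25 was the carrier with the largest fold. It codes for a calcium-regulated ATP-Mg/phosphate carrier, which sets the adenine nucleotide content of the matrix. The gene had 55.5 scaled CPM in CMT (734 counts), 20.1 in CM (380 counts) and 31.3 in IM (518 counts). The 3 libraries were spread apart, CMT highest and CM lowest. It was called higher in CMT than in CM by 2.76-fold (2.43 to 3.13). In CM over IM the fold was 0.643 (0.561 to 0.735), and in CMT over IM 1.77 (1.58 to 1.99), both short of the call. Its paralog SLC25A23 had 11.3 scaled CPM in CMT, 16.7 in CM and 18.6 in IM, with CMT lowest and a fold of 0.676 (0.552 to 0.824) over CM. SLC25A25 accordingly made up 81.6% of the counts of this subfamily in CMT (79.0 to 84.1), against 53.6% in CM (49.8 to 57.3) and 61.6% in IM (58.2 to 64.9). The remaining paralog, SLC25A41, was below the filter with 16 counts in CMT, 14 in CM and 15 in IM. SLC25A23 and SLC25A41 are next to each other in RefSeq's Sscrofa11.1 gene order.

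The other nucleotide and phosphate carriers kept closer to 1. SLC25A3, the phosphate carrier, had 407 scaled CPM in CMT, 427 in CM and 416 in IM, and its 3 folds lay between 0.954 and 1.03. SLC25A33 and SLC25A36, carriers of pyrimidine nucleotides, had folds in CM over IM of 0.798 (0.688 to 0.925) and 0.802 (0.734 to 0.875). In CMT over CM these were 1.23 (1.05 to 1.44) for SLC25A33 and 1.09 (0.992 to 1.20) for SLC25A36.

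Of the carboxylate carriers, SLC25A1 stood out by its level in CMT. This citrate carrier exports citrate, from which the cytosol draws acetyl-CoA for lipid synthesis. SLC25A1 had 503 scaled CPM in CMT, 325 in CM and 372 in IM. CMT was the highest library, with a fold of 1.55 (1.5 to 1.6) over CM and 1.35 (1.31 to 1.4) over IM, neither reaching the call. ACLY, which splits exported citrate in the cytosol, had a fold of 1.21 (1.08 to 1.36) in CMT over CM. ACACA and FASN, of the same partner list, did not go with it. In that comparison ACACA stood at 0.806 (0.699 to 0.929) and FASN at 1.07 (0.969 to 1.18). SLC25A21, which carries 2-oxodicarboxylates such as 2-oxoadipate, had 19.2 scaled CPM in CMT, 19.4 in CM and 21.1 in IM, levels that counting error does not separate. AADAT, a transaminase that makes 2-oxoadipate, had 2103 scaled CPM in CMT, 261 in CM and 1781 in IM. It was called in CMT against CM, 8.06-fold higher (7.82 to 8.31), and in CM against IM, 6.82-fold lower (6.62 to 7.03).

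Amino acid carriers held the next called gene. SLC25A29 imports basic amino acids such as arginine and lysine. SLC25A29 had 104 scaled CPM in CMT (1375 counts), 47.2 in CM (892 counts) and 77.9 in IM (1289 counts). CM was lowest and CMT highest. It was called higher in CMT than in CM by 2.20-fold (2.02 to 2.40), and its fold in CM over IM was 0.606 (0.556 to 0.661). The lower end of its interval lay just above 2, and the call was lost when libraries were scaled by total counts, with or without ribosomal and mitochondrially encoded RNA (fold 2.10 for each), with a 99% interval or after thinning to the smallest library (fold 2.17).

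The aspartate-glutamate carriers, part of the malate-aspartate shuttle that brings reducing equivalents into mitochondria, differed between paralogs. SLC25A13, or citrin, had 129 scaled CPM in CMT, 87.3 in CM and 132 in IM. CMT and IM did not differ beyond counting error, while CM lay below both, at a fold of 0.662 (0.621 to 0.706) over IM. Its partner SLC25A12 had 30.7 scaled CPM in CMT, 28.2 in CM and 29.1 in IM, and none of its 3 intervals excluded 1. SLC25A12 thus took 19.2% of the counts of the pair in CMT (17.6 to 21.0), 24.4% in CM (22.6 to 26.3) and 18.1% in IM (16.6 to 19.6).

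Further amino acid carriers had smaller folds. SLC25A15, the ornithine carrier, had 277 scaled CPM in CMT, 272 in CM and 333 in IM, with IM highest and a fold of 0.816 (0.786 to 0.848) in CM over IM. SLC25A22, a glutamate carrier, had 113 scaled CPM in CMT, 95.9 in CM and 77.7 in IM. Here IM was lowest, at a fold of 1.46 (1.35 to 1.57) in CMT over IM. SLC25A38, which supplies glycine for heme synthesis, had 43.0 scaled CPM in CMT, 53.4 in CM and 49.7 in IM. Its fold in CMT over CM was 0.805 (0.725 to 0.893), with CMT lowest. SLC25A44, a carrier of branched-chain amino acids, had 68.1 scaled CPM in CMT, 60.7 in CM and 72.9 in IM, and CM was lowest at a fold of 0.833 (0.768 to 0.904) over IM. SLC25A2, a second ornithine carrier, was below the filter with 11 counts in CMT, 11 in CM and 9 in IM.

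Enzymes that act on the same amino acids were set beside their carriers. Compared were 17 genes of ammonia, ornithine, arginine and creatine metabolism. For CMT over CM, 2 were called higher and 0 lower, against 1.84% and 1.11% of all genes. For CM over IM, 0 were called higher and 2 lower, against 1.2% and 1.52%. The called genes were AADAT and GLUL, glutamine synthetase, which had 770.2 scaled CPM in CMT, 202 in CM and 584 in IM. OAT, the matrix ornithine aminotransferase, had 89.8 scaled CPM in CMT, 127 in CM and 89.9 in IM, with CM highest at a fold of 1.41 (1.32 to 1.51) over IM. GATM, the mitochondrial enzyme that uses arginine for creatine synthesis, had a fold of 0.504 (0.496 to 0.512) in CM over IM, and ASS1, the argininosuccinate synthase, one of 1.35 (1.33 to 1.36). SLC25A15 at 0.816 and SLC25A29 at 0.606 stand beside these values in the same comparison.

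Of the substrate groups with 3 or more compared genes, carriers of cofactors and acyl groups had the lowest median in CM against IM. All 9 were compared and 0 were called in any comparison. Their median log2 fold was -0.43 in CM against IM, with 8 of 9 below 0, and 0.14 in CMT against CM, with 6 of 9 above 0. SLC25A20 passes acylcarnitines into the matrix for fatty acid oxidation. SLC25A20 had 59.7 scaled CPM in CMT, 36.6 in CM and 41.2 in IM. CMT stood above the other libraries, with a fold of 1.63 (1.47 to 1.81) over CM and 1.45 (1.31 to 1.61) over IM.

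The rest of the carnitine shuttle was read beside it. Of 10 genes, CPT2, which reforms acyl-CoA in the matrix, was called higher in CMT than in CM by 2.22-fold (2.09 to 2.35), and 0 were called lower. Among all compared genes, 1.84% were called higher and 1.11% lower in that comparison. CPT1A, which makes acylcarnitines at the outer membrane, had 494 scaled CPM in CMT, 243 in CM and 323 in IM, a fold of 2.03 (1.96 to 2.11) in CMT over CM whose interval reaches below 2. SLC22A5, the plasma membrane carnitine transporter, stood at 1.95 (1.82 to 2.09) and ACADVL, an acyl-CoA dehydrogenase of long chains, at 1.63 (1.58 to 1.69), close to SLC25A20. ACADM, which acts on medium chains, stood at 1.03 (0.997 to 1.07). CRAT and ACSL1, the most abundant genes of the list, stood at 1.20 (1.16 to 1.24) and 1.07 (1.04 to 1.11). CROT went the other way, at 0.772 (0.645 to 0.923). On the log2 scale, 9 of the 10 genes were above 0 and 1 below in CMT against CM. The list had a median log2 fold of 0.49 in CMT against CM and -0.17 in CM against IM.

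SLC25A17, a carrier of coenzyme A and other nucleotides in the peroxisomal membrane, had 118 scaled CPM in CMT, 74.5 in CM and 106 in IM. SLC25A26, which imports S-adenosylmethionine, had 36.9 scaled CPM in CMT, 25.2 in CM and 36.4 in IM. SLC25A39, a glutathione importer, had 222 scaled CPM in CMT, 169 in CM and 232 in IM. In all 3 genes CM was lowest, at folds over IM of 0.702 (0.654 to 0.753), 0.693 (0.613 to 0.783) and 0.728 (0.694 to 0.763). SLC25A16, SLC25A32, SLC25A40 and SLC25A51 had at most 246 counts in a library, and none of their intervals excluded 1 in CMT over CM. In CM over IM, SLC25A16 stood at 0.741 (0.565 to 0.969) and SLC25A40 at 0.794 (0.659 to 0.956). SLC25A16 also stood at 0.722 (0.531 to 0.975) in CMT over IM, and the remaining intervals of these genes included 1. SLC25A51 imports NAD, and it had 6.27 scaled CPM in CMT, 5.66 in CM and 5.56 in IM.

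The mitoferrins, which import iron for heme and iron-sulfur clusters, were similar to each other. SLC25A28 had 81.6 scaled CPM in CMT, 73.6 in CM and 66.5 in IM, and SLC25A37, the isoform of red cell precursors, had 33.3 in CMT, 31.8 in CM and 26.3 in IM. IM was lowest for both, with folds in CMT over IM of 1.23 (1.13 to 1.34) and 1.27 (1.11 to 1.45). SLC25A28 took 71.0% of their counts in CMT, 69.8% in CM and 71.7% in IM, shares whose intervals overlap. Compared with them were 20 genes of heme, iron-sulfur, folate and coenzyme metabolism. For CMT over CM, 2 were called higher and 1 lower, against 1.84% and 1.11% of all genes. For CM over IM, 1 was called higher and 1 lower, against 1.2% and 1.52%. ALAS1, the first enzyme of heme synthesis, had 326 scaled CPM in CMT, 120 in CM and 231 in IM, and was called higher in CMT than in CM by 2.71-fold (2.58 to 2.85). MTHFD2, of mitochondrial folate metabolism, was called in CMT against CM, 3.12-fold higher (2.16 to 4.56), and in CM against IM, 3.09-fold lower (2.17 to 4.47). SHMT2, the serine hydroxymethyltransferase of that pathway, was called in CM against IM, 2.77-fold higher (2.39 to 3.21). NMNAT3, an enzyme of NAD synthesis, was called in CMT against CM, 3.07-fold lower (2.10 to 4.59). SLC25A32, the mitochondrial folate carrier, had 4.31 scaled CPM in CMT, 4.87 in CM and 5.44 in IM.

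Among carriers with less settled substrates, SLC25A34 was called and SLC25A48 came close to it. SLC25A34 had 132 scaled CPM in CMT (1741 counts), 53.9 in CM (1019 counts) and 62.0 in IM (1026 counts). CMT stood apart from both other libraries. The gene was called higher in CMT than in CM by 2.44-fold (2.26 to 2.64), and its fold of 2.12 (1.96 to 2.30) in CMT over IM fell just short. In CM over IM it was 0.870 (0.797 to 0.95). SLC25A35, the paralog of SLC25A34, had 3.63 scaled CPM in CMT, 6.08 in CM and 5.68 in IM, so that CMT was lowest, at a fold of 0.596 (0.416 to 0.842) over CM.

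SLC25A48 has been linked to mitochondrial choline import in human cells. It had 55.9 scaled CPM in CMT (740 counts), 107 in CM (2017 counts) and 55.8 in IM (924 counts). CM held the high level, while CMT and IM were alike within counting error at a fold of 1.0 (0.908 to 1.10). In CM over IM the fold was 1.91 (1.77 to 2.07) and in CMT over CM 0.524 (0.481 to 0.570), so neither was called.

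The other members of this group were SLC25A45, with 48.8 scaled CPM in CMT, 43.7 in CM and 37.7 in IM, and SLC25A46, an outer membrane protein, with 13.3 in CMT, 18.6 in CM and 18.8 in IM. SLC25A46 was lowest in CMT, at a fold of 0.714 (0.592 to 0.858) over CM. SLC25A43 had folds between 0.807 and 0.925, and SLC25A53, with 13 counts in CMT, 18 in CM and 20 in IM, had intervals spanning 1 in each comparison. SLC25A27, close to the uncoupling proteins, had 23.5 scaled CPM in CMT, 24.7 in CM and 22.5 in IM and no interval that excluded 1. SLC25A47, known from liver, was below the filter with 18 counts in CMT, 11 in CM and 14 in IM.

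Relatives of the family stand in the table under other names and were set beside the members. UCP2, an uncoupling protein, had 56.4 scaled CPM in CMT, 19.9 in CM and 26.3 in IM. CMT was highest, and UCP2 was called higher in CMT than in CM by 2.83-fold (2.49 to 3.21), with 2.14 (1.90 to 2.41) in CMT over IM. A row with a numbered identifier that RefSeq names SLC25A30, a kidney-rich carrier, had 27.4 scaled CPM in CMT, 21.5 in CM and 46.1 in IM. Its fold was 0.467 (0.413 to 0.527) in CM over IM and 0.594 (0.523 to 0.674) in CMT over IM, with IM the highest library and no call. UCP1, UCP3 and the numbered row that RefSeq names SLC25A14 were below the filter. MTCH1 and MTCH2, outer membrane relatives of the carriers, had folds in CM over IM of 0.834 (0.803 to 0.867) and 0.725 (0.677 to 0.776). SLC25A10, SLC25A11, SLC25A18, SLC25A24, SLC25A42 and SLC25A52 were not analysed here.

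**Figure D4:**
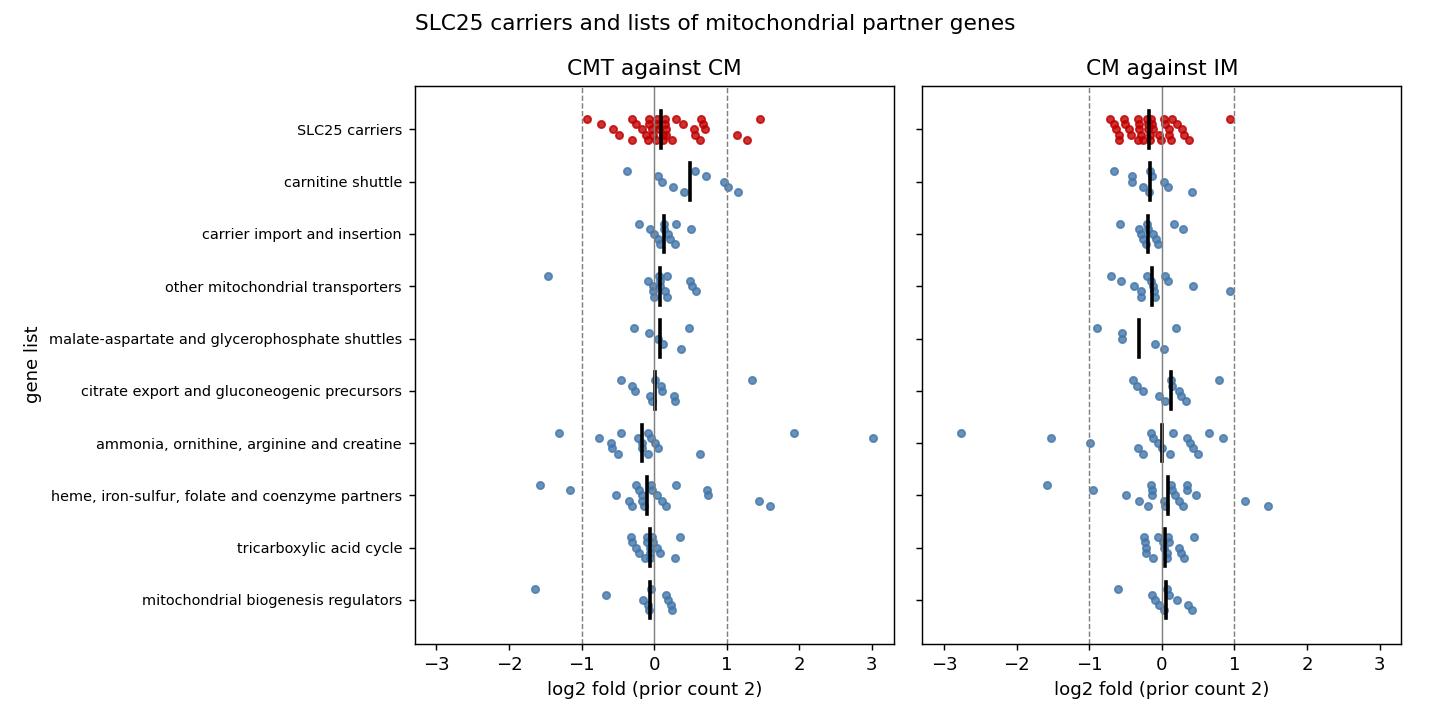
Log2 fold of the compared genes (dots) in CMT against CM and in CM against IM. Red dots are the SLC25 family and blue dots 9 lists of partner genes. Some lists hold cytosolic or plasma membrane genes beside mitochondrial ones. Black bars mark medians and dashed lines 2-fold. The carnitine shuttle has the highest median in CMT against CM, 0.49, and the tricarboxylic acid cycle stays near 0 in both, at -0.06 and 0.05.

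Other partner genes, not all of them mitochondrial, were summarised in lists. Of all compared genes, 1.84% were called higher and 1.11% lower in CMT against CM. The shares were 1.2% and 1.52% in CM against IM, and 0.905% and 0.595% in CMT against IM. None of the 16 tricarboxylic acid cycle genes was called in any comparison, and their median log2 fold was -0.06 in CMT against CM and 0.05 in CM against IM, beside 0.09 and -0.18 for the carriers. The 12 genes of carrier import and membrane insertion were likewise never called, with medians of 0.13 and -0.20. TOMM20, a receptor of the outer membrane translocase, had folds of 1.14 (1.08 to 1.21) in CMT over CM and 0.818 (0.775 to 0.863) in CM over IM. Of 14 other mitochondrial transporters, SFXN2, a sideroflexin, was the only called gene. SFXN2 had 23.6 scaled CPM in CMT, 65.2 in CM and 34.0 in IM, and was called lower in CMT than in CM by 2.76-fold (2.43 to 3.13). VDAC1, the main channel of the outer membrane, had 329 scaled CPM in CMT, 329 in CM and 352 in IM, and MPC2, of the pyruvate carrier, had 84.1 in CMT, 59.8 in CM and 97.0 in IM. MPC2 was lowest in CM, at a fold of 0.616 (0.571 to 0.665) over IM.

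The 6 compared enzymes of the malate-aspartate and glycerophosphate shuttles had 0 calls in all comparisons. Their folds in CM over IM spread to both sides of 1. Of the aspartate aminotransferases, the cytosolic GOT1 stood at 0.685 (0.648 to 0.723) and the matrix GOT2 at 1.02 (0.962 to 1.08). Of the malate dehydrogenases, the cytosolic MDH1 stood at 1.15 (1.08 to 1.22) and the matrix MDH2 at 0.939 (0.898 to 0.982). The glycerol-3-phosphate dehydrogenases GPD1 and GPD1L stood at 0.683 (0.657 to 0.709) and 0.537 (0.495 to 0.582). In the list of citrate use and gluconeogenesis, 1 of 11 genes was called higher in CMT than in CM, against 1.84% of all genes. It was PCK1, of cytosolic phosphoenolpyruvate synthesis, at 2.54 (2.52 to 2.56), and 0 were called in the other comparisons. PCK2, of the same list, went the other way without a call. Its fold was 0.730 (0.714 to 0.746) in CMT over CM and 1.72 (1.68 to 1.76) in CM over IM. Of 10 regulators of mitochondrial biogenesis, 1 was called lower in CMT than in CM, against 1.11% of all genes. It was PPARA, a receptor that drives fatty acid oxidation genes, 3.16-fold lower (2.46 to 4.11). In the other comparisons 0 regulators were called. ESRRA, a nuclear receptor that acts on mitochondrial genes, had a fold of 1.19 (1.11 to 1.27) in CMT over CM.

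Markers of cell types were summed in the same libraries. Muscle markers, 13 in the table, summed to 479 scaled CPM in CMT, 87.2 in CM and 238 in IM. This order of libraries was that of SLC25A25, SLC25A29 and SLC25A34. It was also that of carriers without a call, such as SLC25A1, SLC25A17 and SLC25A20, so it was not particular to the called genes. For SLC25A4, CM was lowest as well. ACTC1 alone had 416 in CMT, 26.7 in CM and 156 in IM. The other 12 summed to 63.5 in CMT, 60.5 in CM and 81.7 in IM, so that IM was highest without ACTC1. MB, which codes for myoglobin, was at 0 in all libraries. Hepatocyte markers, 14 in the table, summed to 665 in CMT, 339 in CM and 789 in IM, with CPS1 at 0 in all libraries. TF made up most of it, and the other 13 summed to 118 in CMT, 54.6 in CM and 163 in IM. Single hepatocyte markers went opposite ways: ALB was called in CM against IM, 92.9-fold lower (62.2 to 145), and TTR was called in CM against IM, 3.22-fold higher (2.65 to 3.93). Leukocyte markers summed to 76.6 in CMT, 84.0 in CM and 59.6 in IM. The loop of Henle and distal tubule list, also rich in mitochondria, gave 9307 in CMT, 8247 in CM and 7096 in IM. UMOD made up most of that sum, and the other 7 markers summed to 1329 in CMT, 1339.7 in CM and 1381 in IM. Collecting duct markers summed to 1247 in CMT, 1497 in CM and 1270 in IM, and podocyte markers to 428, 403 and 356 in that order. Endothelial and stromal markers summed to 1002 in CMT, 1027 in CM and 1180 in IM, and adipocyte markers to 38.5, 42.2 and 42.8. The part of cell composition in the carrier differences was not tested.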

How the data were processed

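Counts as deposited are unnormalised whole numbers, 1 column a pooled library. Extraction used TRIzol and library preparation an Ion Torrent kit, per the labels' protocols, whereas the design text names an Illumina sequencer and triplicates; the platform was not settled here. FastQC is the only tool in the submitters' processing notes. The aligner, counter, strand setting and genome build used are not given in the sources used here. In RefSeq's Sscrofa11.1, 11 of the 38 members with a position overlap another gene, whose reads may be shared (SLC25A1, SLC25A15 and SLC25A26 among them). A search of that table gave symbols to 1556 of 19902 numbered rows and was used for SLC25A14, SLC25A30, partner and marker genes only.

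Library sizes were scaled with TMM factors of 0.973 (CMT), 1.02 (CM) and 1.01 (IM) from edgeR 4.0.16 in R 4.3.3. Folds are ratios of scaled counts with Clopper-Pearson intervals (95%) from scipy 1.17.1; log2 folds used a prior count of 2. Genes below a mean of 1 scaled CPM were not compared. With 1 library a group no count model could be fitted. Intervals and the floor of 3 counts cover counting error only. They treat reads as independent molecules, which reads are not, so they may be too narrow even for that. Alternatives covered the scaling (total counts, DESeq2 1.42.0 size factors, upper quartile, totals without ribosomal and mitochondrially encoded RNA), the filter, the fold, the interval, thinning and the prior. Named were called members, the 15 with the interval bound farthest from 1, the 10 with the highest mean and a fixed set; of partner lists, called genes, the most abundant and, chosen after their values were seen, other partner genes beside a carrier. Members, roles and partner lists were chosen with earlier results of these data known. Values of 1 carrier and 1 partner gene are not reported here by name, though counts and medians include them. Lengths and sequences were not at hand, so levels are compared between libraries, not between genes.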

Additional observations from a re-analysis of the deposited data

How the results depend on the processing

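The 3 carriers called higher in CMT than in CM became 0 when the interval had to lie beyond 3-fold. At 1.5-fold, calls in CM against IM were 1 higher and 2 lower, calls lower in CMT than in CM were 1, and calls higher in CMT than in IM were 2. All other counts of calls kept within 1.5 times of their value, or at 0, under every other setting; the count of 3 was 2 under total-count scaling, scaling without ribosomal and mitochondrially encoded RNA, the 99% interval and thinning, each time because SLC25A29 lost its call. SLC25A25 and SLC25A34 were called under every scaling, the 99% interval and thinning. The median log2 fold of the carriers stayed between 0.02 and 0.13 in CMT against CM, between -0.22 and -0.16 in CM against IM and between -0.08 and -0.01 in CMT against IM. Of 567 folds of 27 carriers under the alternatives, 15 lay on the other side of 1 from the reported fold, in 8 combinations of carrier and comparison (SLC25A15 and SLC25A37 in CMT against CM, SLC25A26 and SLC25A48 in CMT against IM, and SLC25A3, SLC25A35, SLC25A46 and SLC25A51 in CM against IM). None of these was called, each had a reported interval that includes 1, and the largest change of any fold was 1.08-fold. Scaling to mitochondrially encoded counts was added after the data were seen. No paired analysis was possible because each group is 1 pooled library. Carriers with under about 20 counts a library could not be resolved at this depth.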
